A study of Mus musculus with 12 samples.

Results

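The INK4 and KIP genes encode inhibitors of the cyclin-dependent kinases (CDKs) that drive cells through the cell cycle. The 6 genes described here are Cdkn2a, Cdkn2b, Cdkn2c and Cdkn2d of the INK4 family and Cdkn1b and Cdkn1c of the KIP family. They were chosen by name, as the CDK inhibitors other than Cdkn1a, from the 24421 genes of a deposited expression table. All 6 were among the 18948 genes tested, which the authors kept in their other deposited table and which varied. Bulk RNA sequencing covered 12 libraries from mice. Of these, 6 were of sarcomas of bone or marrow that arose in p53 knockout mice (tumors 1 to 6), 3 were labelled as mesenchymal stem cells of p53 knockout mice (KO MSC) and 3 were of the same cells of p53 wild-type mice (WT MSC). All material was freshly isolated, per the labels. The MSCs were sorted as marrow cells without CD45, Ter119 and CD31 and with the leptin receptor LepR and CD140a, whereas the tumors were lysed in TRIzol, and the labels describe a sort for MSCs alone. The labels do not give the deleted part of Trp53, the strain, the age or the animal behind each library, so a p-value here reflects library-to-library spread, and some of that spread may be technical.

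INK4 proteins bind CDK4 and CDK6 and keep D-type cyclins from activating them, so that the retinoblastoma protein stays active and holds back E2F target genes. KIP proteins bind complexes of cyclin E or A with CDK2. The Cdkn2a gene is unusual in that it encodes a pair of unrelated proteins from a shared exon read in different frames: p16, an INK4 inhibitor, and ARF, which binds Mdm2 and thereby stabilizes p53. In mouse fibroblasts without p53, ARF is known to accumulate, and Cdkn2a is silent in most young healthy tissues, where Polycomb complexes repress it.

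Values are the authors' variance-stabilized, batch-adjusted log2 values, in which genes with few or no reads sit at a lowest value, called the floor here. They are not per length, so levels are compared between libraries and not between genes. Libraries of 1 batch have identical floors, by which they fell into a batch 1 (tumors 1 to 3, KO_MSC 1 and WT_MSC 1) and a batch 2 (tumors 4 to 6, KO_MSC 2 and 3 and WT_MSC 2 and 3). Lepr, which encodes the receptor used in the sort, lay between 4.10 and 8.93 in the tumors, between 11.63 and 14.12 in the libraries labelled KO MSC and between 14.56 and 15.60 in WT MSC. Trp53, the targeted gene, ranged from 6.79 to 9.16 in the tumors. It had 10.49, 9.76 and 6.96 in the libraries labelled KO_MSC 1, 2 and 3, against 9.96, 10.04 and 10.61 in WT_MSC 1, 2 and 3. KO_MSC 1 and 2 were thus near the level of WT MSC. Comparisons with KO MSC therefore depend on a label that Trp53 did not follow in these libraries. KO_MSC 3, with the low Trp53 value, also had the most genes at the floor of all 12 libraries, 12313 of 24421. Its upper quartile of values, 8.35, was the lowest. Whether labels are wrong, a deleted copy still gives transcript or KO_MSC 3 lost signal in general was not tested.

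Cdkn2a and Cdkn2b lie side by side on chromosome 4 (GRCm38, the build mm10 of the submitters' processing notes), both on the minus strand. Cdkn2a (ENSMUSG00000044303.6) spans 89274471 to 89294653 and Cdkn2b (ENSMUSG00000073802.5) spans 89306299 to 89311039, 11646 bp away. Cdkn2a has 2 annotated transcripts of 3 exons each. Cdkn2a-202, with the ARF first exon, starts 12461 bp upstream of Cdkn2a-201, with the p16 first exon, and both use the same exon 2 (89276645 to 89276985). A single value per gene cannot tell p16 from ARF. The start regions of these transcripts are shown because this locus held the members that differed most between tumors and MSCs. Each RefSeq window (GRCm38.p6) runs from 250 bases before to 50 bases after a transcript start, and the capitals mark a GC box, GGGCGG or its complement CCGCCC.
Cdkn2a ARF start, chr4:89294570-89294869, minus strand: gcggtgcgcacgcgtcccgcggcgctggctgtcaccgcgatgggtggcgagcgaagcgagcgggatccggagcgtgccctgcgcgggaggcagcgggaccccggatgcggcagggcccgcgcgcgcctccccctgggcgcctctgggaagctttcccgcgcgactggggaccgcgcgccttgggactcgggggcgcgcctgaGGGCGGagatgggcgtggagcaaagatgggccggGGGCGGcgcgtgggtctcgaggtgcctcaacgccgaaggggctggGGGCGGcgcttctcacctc
Cdkn2a p16 start, chr4:89282143-89282442, minus strand: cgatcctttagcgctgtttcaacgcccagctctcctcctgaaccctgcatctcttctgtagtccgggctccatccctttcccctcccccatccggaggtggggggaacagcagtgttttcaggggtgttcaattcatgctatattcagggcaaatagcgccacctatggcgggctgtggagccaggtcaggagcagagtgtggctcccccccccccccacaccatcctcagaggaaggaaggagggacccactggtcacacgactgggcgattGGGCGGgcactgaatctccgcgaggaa
Cdkn2b start, chr4:89310983-89311282, minus strand: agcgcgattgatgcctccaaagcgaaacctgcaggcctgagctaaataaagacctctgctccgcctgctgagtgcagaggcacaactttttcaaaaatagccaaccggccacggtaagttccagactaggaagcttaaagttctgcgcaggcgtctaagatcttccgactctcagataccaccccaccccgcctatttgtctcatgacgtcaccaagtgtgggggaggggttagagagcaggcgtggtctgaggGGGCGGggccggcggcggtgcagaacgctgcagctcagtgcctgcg
The ARF window held 3 GC boxes, the p16 window 1 and the Cdkn2b window 1. Of all 32851 windows, searched on both strands, 35.7% held at least 1. CpG dinucleotides, which are often methylated in silenced promoters, numbered 45 in the ARF window, 12 in the p16 window and 18 in the Cdkn2b window, with a median of 7 over all windows. A CCAAT box (the letters CCAAT on either strand), present in 37.4% of all windows, occurred once in the p16 window and in neither of the others, and a TATA box (TATAAA), in 13.6% of all windows, in none of the 3. Windows were available for 5 of the 6 members. No DNA methylation or binding data were used here, so these letters are a description of the sequence alone.

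Against the libraries labelled KO MSC, 2 of the 6 members passed the test in tumors, Cdkn2a and Cdkn2b, and both were higher. The test was limma across 18948 genes, with Benjamini-Hochberg adjustment over all of them, and an adjusted p under 0.05 passed. By that rule 4.98% of genes passed, 2.70% as higher and 2.28% as lower. Against WT MSC the same 2 members rose, where 21.3% of all genes passed, 10.4% as higher and 10.9% as lower. Between the libraries labelled KO MSC and WT MSC no member passed, and 0.00% of all genes did. At an unadjusted p under 0.05, limma gave 1 member, Cdkn2c, and 1637 genes in that comparison. The median member difference was 0.30 for tumor against KO MSC, 1.03 for tumor against WT MSC and 0.13 for KO MSC against WT MSC, beside 0.04, -0.06 and -0.01 over all genes tested.

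**Figure D1:**
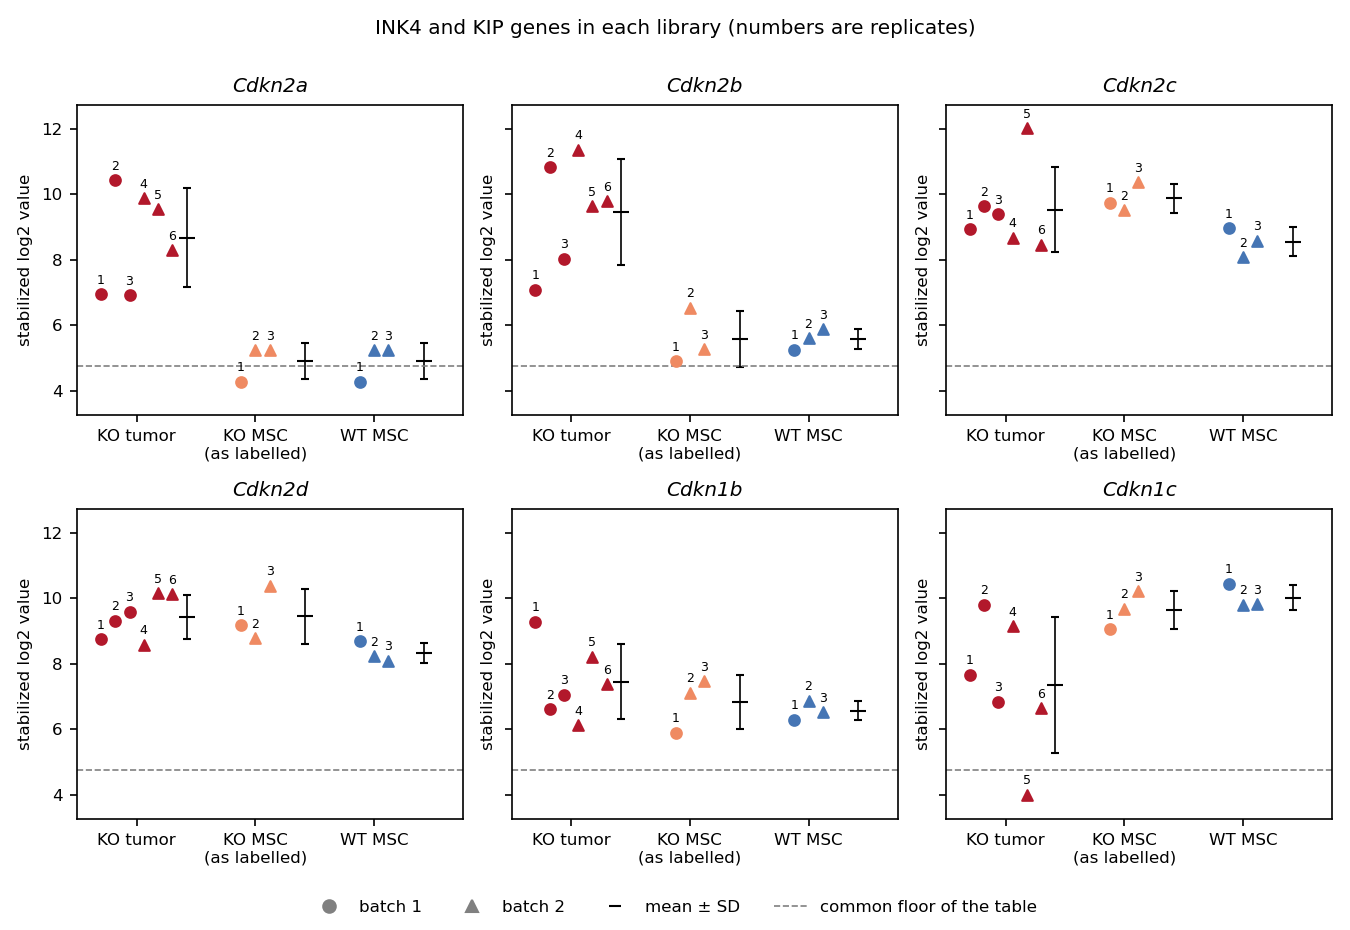
Stabilized log2 value of each of the 6 genes in each library, with tumors left, libraries labelled KO MSC in the middle and WT MSC right. Circles are batch 1 and triangles batch 2, black bars are the mean ± SD of a group, and the dashed line is the common floor of the table, 4.75. All 6 tumors lie above all 6 MSC libraries for Cdkn2a and Cdkn2b, whereas the groups mix for the other genes in at least 1 comparison.

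Cdkn2a was at the floor of its batch in all 6 MSC libraries. Tumors 1 to 6 had 6.95, 10.43, 6.92, 9.88, 9.54 and 8.28. In the libraries labelled KO_MSC 1, 2 and 3 the values were 4.27, 5.23 and 5.23, and WT_MSC 1, 2 and 3 had the same 3 values, which are the floors of batch 1 and batch 2. Every tumor was thus above every MSC library, and the spread within each MSC group (SD 0.56, n = 3) is the gap between the floors. KO_MSC 1 and WT_MSC 1, at the floor for Cdkn2a, were the libraries with the fewest genes there, 2569 and 3594 of 24421, against 8886 to 12313 in the others. The tumors averaged 8.67 ± 1.52 (SD, n = 6), and the difference was 3.75 ± 0.80 (SE) against KO MSC (adjusted p = 0.0241, limma) and 3.75 ± 0.79 against WT MSC (adjusted p = 0.00796, limma). As the MSC values are floors, these differences are distances from a floor and not fold changes. They were 3.83 within batch 1 and 4.00 within batch 2 in both comparisons. With the floors of the batches aligned at 4.75, a setting chosen after seeing the data, the tumors had 7.43, 10.92, 7.40, 9.40, 9.06 and 7.79.

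The call for Cdkn2a depended on few MSC libraries. Without the library labelled KO_MSC 1 its difference from KO MSC was 3.43 (adjusted p = 0.153, limma), and without KO_MSC 2 it was 3.91 (adjusted p = 0.0660, limma). Without WT_MSC 1 the difference from WT MSC was 3.43 (adjusted p = 0.0528, limma). With batch as a term the adjusted p was 0.0283 against KO MSC and 0.0108 against WT MSC (limma). Over 20 alternatives each, it ranged from 0.00417 to 0.180 and from 0.00183 to 0.0677 (limma). All differences in these alternatives lay between 3.13 and 4.10. An exact permutation test of the means gave p = 0.0238 two-sided in each comparison, where 0.0119 is the smallest p that 6 and 3 libraries allow.

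At the floor in all 6 MSC libraries were 291 of the tested genes, and 27 of those were above it in all 6 tumors. Cdkn2a was among the 27, as were Ccl12, Gstp2, Upp1, Tnni2 and Clec4b1. Of the 27, 9 passed as higher in tumors against KO MSC. The 27 were picked for lying higher in tumors, so the direction was fixed and these counts are a description alone.

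Cdkn2b, whose product p15 is an INK4 inhibitor known for its induction by TGF-beta, followed the same order. Tumors 1 to 6 had 7.08, 10.82, 8.03, 11.35, 9.63 and 9.79. The libraries labelled KO_MSC 1, 2 and 3 had 4.90, 6.53 and 5.26, and WT_MSC 1, 2 and 3 had 5.25, 5.60 and 5.87. All tumors were above all MSC libraries. The MSC values were near the common floor, the lowest 0.15 above it, so the differences below are partly distances from a floor. The tumors averaged 9.45 ± 1.63 (SD, n = 6), the libraries labelled KO MSC 5.56 ± 0.85 and WT MSC 5.57 ± 0.31 (SD, n = 3 each). The difference was 3.89 ± 0.86 (SE) against KO MSC (adjusted p = 0.0264, limma) and 3.88 ± 0.82 against WT MSC (adjusted p = 0.00828, limma). Within batch 1 the differences were 3.74 from KO MSC and 3.40 from WT MSC, and within batch 2 they were 4.37 and 4.52. With batch as a term, the adjusted p was 0.0248 against KO MSC and 0.00979 against WT MSC (limma), and over 19 alternatives each it ranged from 0.00918 to 0.175 and from 0.00110 to 0.0659.

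For Cdkn2b the call against KO MSC lay close to the threshold. It was lost without KO_MSC 1 (adjusted p = 0.161, limma), KO_MSC 2 (0.0537), KO_MSC 3 (0.0538), tumor 5 (0.0520) or tumor 6 (0.0535), at differences between 3.56 and 4.37. Against WT MSC it passed without any single library, though the highest adjusted p (limma) rounds to 0.05. Groups that do not overlap, as for Cdkn2a and Cdkn2b, occurred in 13.4% of all genes for tumor against KO MSC and in 25.2% for tumor against WT MSC. The exact two-sided permutation p was 0.0119 in each comparison, the smallest possible.

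Across the 12 libraries Cdkn2a and Cdkn2b resembled each other more than any other pair of members. After each gene was centred on its own mean, their root mean square difference was 0.52 (log2), at SDs over the 12 libraries of 2.24 and 2.34. It was 0.77 for the next pair, Cdkn2c and Cdkn2d, and 0.96 to 3.50 for the other 13 pairs. Cdkn2c and Cdkn2d varied less, with SDs of 1.05 and 0.77, so their difference is hard to compare with that of the first pair. Among 11007 genes compared, Cdkn2a was the second closest to Cdkn2b, after Ccdc109b (0.45) and before Cx3cr1 (0.58), a chemokine receptor of monocytes and macrophages. Closest to Cdkn2a were Gchfr (0.49), Ccdc109b (0.49) and Ugt1a7c (0.51). The points share the contrast of tumors with MSCs, so this likeness is a description of 12 libraries. Within the tumors both genes were lowest in tumors 1 and 3 and highest in tumors 2 and 4.

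Some markers of other cells also differed between tumors and MSCs. Of 10 macrophage markers, 9 rose against KO MSC and 10 against WT MSC, with medians of 6.28 and 6.41, and their mean level was 10.42 to 13.62 in tumors, 5.29 to 6.50 in KO MSC and 5.00 to 6.50 in WT MSC. Of 8 endothelial markers 4 rose against KO MSC and 7 against WT MSC, with medians of 2.32 and 2.37, and their mean level was 7.10 to 8.99 in tumors, 5.62 to 6.10 in KO MSC and 5.48 to 6 in WT MSC. Of 8 lymphocyte markers Cd3d and Cd3g, of T cells, rose in both comparisons. Skeletal muscle markers, of which none of 8 passed (1 at an unadjusted p under 0.05 in each comparison, limma), had mean levels of 8.19, 5.19, 10.22, 13.99, 6.96 and 5.85 in tumors 1 to 6, against 5.22 to 5.77 in KO MSC and 4.98 to 5.83 in WT MSC. Adgre1, which marks macrophages, lay between 8.01 and 11.95 in tumors, 5.23 and 5.86 in KO MSC and 5.23 and 5.25 in WT MSC. Of 8 osteoblast markers limma passed 0 in either comparison, and 0 at an unadjusted p under 0.05. Their mean level among the tumors was highest in tumors 1, 3 and 6 (14.53, 12.59 and 12.41). It was 7.40, 8.84 and 8.93 in tumors 2, 4 and 5. Tumors 1, 3 and 6 had the 3 lowest values of Cdkn2a. For Cdkn2b the 3 lowest were those of tumors 1, 3 and 5 (7.08, 8.03 and 9.63), with 9.79 in tumor 6. Mean levels of macrophage markers in tumors 1 to 6 were 10.42, 10.89, 10.64, 13.62, 12.80 and 11.82. Those of endothelial markers were 7.50, 7.10, 8.03, 8.99, 7.60 and 8.22, and those of lymphocyte markers 5.84, 5.71, 6.49, 7.21, 7.16 and 7.30. Tumor 2, with the highest Cdkn2a value, thus had the lowest endothelial and lymphocyte levels of the tumors, and tumor 4 the highest endothelial level. The part of these cells in the values of Cdkn2a and Cdkn2b was not tested. In bulk samples, fewer cells of a type and less RNA per cell cannot be told apart.

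The genes on either side of the pair behaved differently from each other. Mtap, which encodes an enzyme of methionine salvage and lies 93390 bp from Cdkn2a, had 8.72, 10.24, 9.56, 11.13, 9.68 and 10.62 in tumors 1 to 6. It had 8.11, 8.17 and 5.34 in KO_MSC 1, 2 and 3 and 7.96, 8.88 and 8.82 in WT_MSC 1, 2 and 3, so that tumors lay above the KO MSC libraries and overlapped WT MSC in tumor 1. Mtap rose by 2.79 ± 0.68 (SE) against KO MSC (adjusted p = 0.0401, limma) and differed by 1.44 ± 0.49 from WT MSC (adjusted p = 0.0615, limma). With batch as a term only the second passed (2.83, adjusted p = 0.0677, and 1.60, adjusted p = 0.0294, limma). In each comparison 7 of 19 alternatives passed, and the adjusted p ranged from 0.00932 to 0.295 and from 0.0194 to 0.244. The call against KO MSC was lost on leaving out any 1 library except tumor 1 (adjusted p 0.0606 to 0.108, limma), and that against WT MSC was gained without tumor 1 (adjusted p = 0.0194). Dmrta1, 368397 bp beyond Cdkn2b, stayed between 4.49 and 5.87 in all libraries, near the floor.

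**Figure D2:**
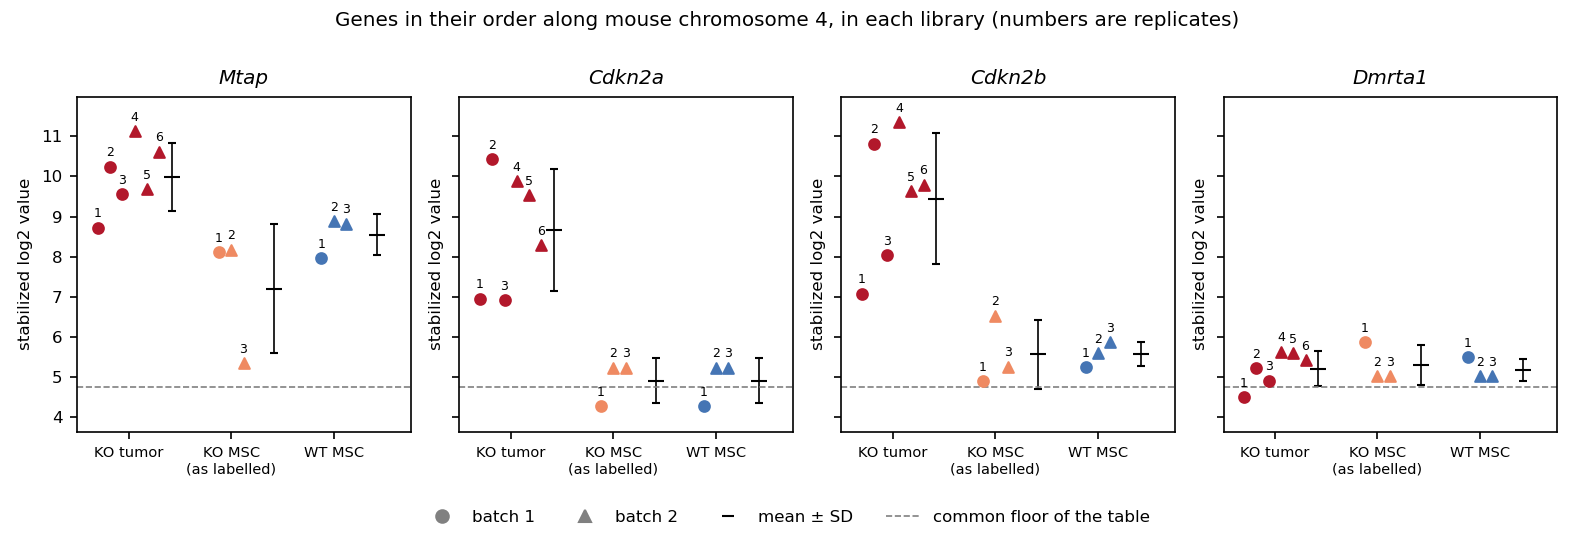
Stabilized log2 value in each library of Mtap, Cdkn2a, Cdkn2b and Dmrta1, in their order along chromosome 4, with tumors left, libraries labelled KO MSC in the middle and WT MSC right. Circles are batch 1, triangles batch 2 and black bars the mean ± SD. Cdkn2a and Cdkn2b separate the tumors from both MSC groups, Mtap separates them from the KO MSC libraries, and Dmrta1 stays between 4.49 and 5.87.

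Cdkn2c and Cdkn2d, the other INK4 genes, were expressed in every library and did not pass in any comparison. Cdkn2c, whose product p18 acts on CDK6 and CDK4, lies on chromosome 4 as well (109660876 to 109667189). It had 8.93, 9.63, 9.39, 8.67, 12.01 and 8.46 in tumors 1 to 6, 9.74, 9.50 and 10.36 in KO_MSC 1, 2 and 3, and 8.96, 8.08 and 8.58 in WT_MSC 1, 2 and 3. Tumor 5 stood apart from the other tumors, and the KO MSC libraries were all above the WT MSC libraries. The KO MSC mean exceeded that of WT MSC by 1.32 ± 0.41 (SE), which did not pass (adjusted p = 0.551, limma). Tumors differed by -0.35 ± 0.68 from KO MSC (adjusted p = 0.777, limma) and by 0.97 ± 0.68 from WT MSC (adjusted p = 0.316, limma).

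Cdkn2d, which encodes p19, another CDK4 and CDK6 inhibitor, lies on chromosome 9 (21288410 to 21291407). Its values were 8.75, 9.31, 9.58, 8.57, 10.15 and 10.12 in tumors 1 to 6, 9.17, 8.77 and 10.37 in KO_MSC 1, 2 and 3, and 8.68, 8.22 and 8.09 in WT_MSC 1, 2 and 3. Both the tumor and the KO MSC values lay mostly above those of WT MSC and spread over a similar range. Tumors averaged 9.42 ± 0.67 (SD, n = 6), KO MSC 9.44 ± 0.83 and WT MSC 8.33 ± 0.31 (SD, n = 3 each). The tumor difference from WT MSC, 1.09 ± 0.40 (SE), did not pass (adjusted p = 0.0807, limma), although it did without tumor 4 (1.25, adjusted p = 0.0331, limma). Between tumors and KO MSC the difference was -0.02 ± 0.49, and KO MSC differed from WT MSC by 1.11 ± 0.49 (adjusted p = 0.581, limma).

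Cdkn2c and Cdkn2d were the members for which KO MSC and WT MSC did not overlap, with all 3 libraries labelled KO MSC above. Non-overlap occurred in 15.2% of all genes in that comparison. The exact two-sided permutation p was 0.1 for each, the smallest that 3 and 3 libraries allow. Within batch 1 the difference was 0.78 for Cdkn2c and 0.49 for Cdkn2d, and within batch 2 it was 1.60 and 1.42.

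**Figure D3:**
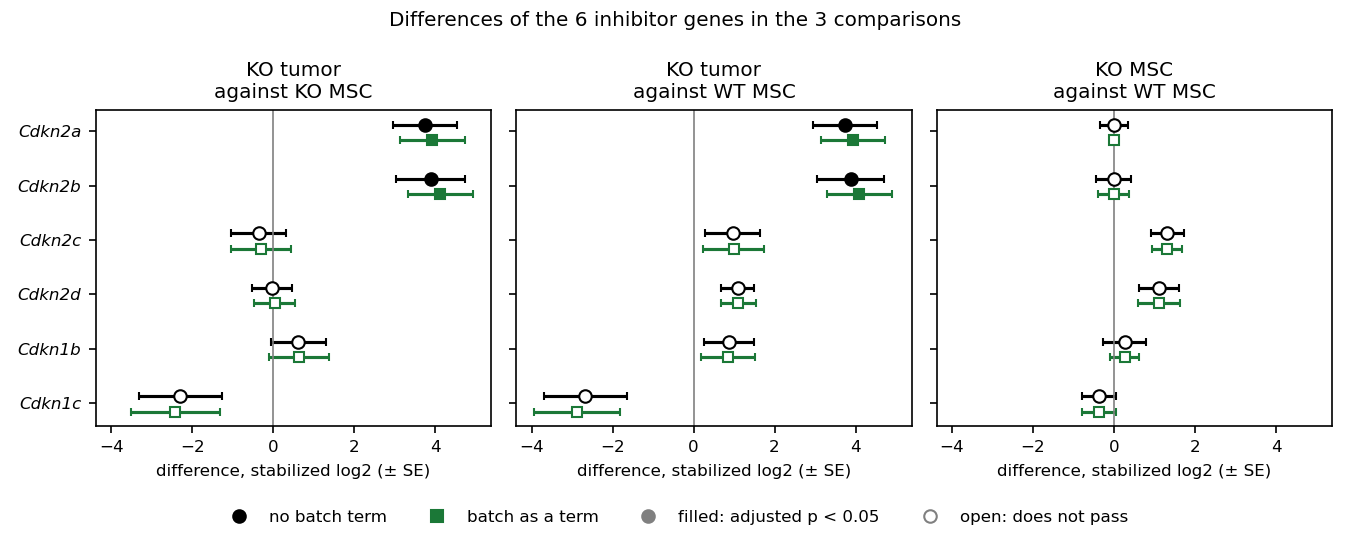
Difference between groups for each of the 6 genes (horizontal axis, stabilized log2, ± SE) in the 3 comparisons, without a batch term (black circles) and with batch as a term (green squares). Filled symbols have an adjusted p under 0.05. Cdkn2a and Cdkn2b are the filled genes in both tumor comparisons, between 3.75 and 4.13, and no symbol is filled for KO MSC against WT MSC.

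Of the KIP genes, Cdkn1b showed no difference beyond its spread. It encodes p27, which is controlled mainly by degradation of the protein, and lies on chromosome 6 (134920401 to 134925513). Tumors 1 to 6 had 9.28, 6.61, 7.05, 6.12, 8.21 and 7.37, KO_MSC 1, 2 and 3 had 5.89, 7.11 and 7.46, and WT_MSC 1, 2 and 3 had 6.29, 6.86 and 6.52. The groups overlapped, with tumor 4 below all WT MSC libraries, tumor 2 among them and the other tumors above them. Differences were 0.62 ± 0.68 (SE) for tumor against KO MSC (adjusted p = 0.590, limma), 0.88 ± 0.61 for tumor against WT MSC (adjusted p = 0.313, limma) and 0.26 ± 0.53 for KO MSC against WT MSC (adjusted p = 0.952, limma). Against KO MSC the difference was 1.75 within batch 1 and -0.05 within batch 2.

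Cdkn1c had the most negative tumor differences of the 6 genes, without passing the test. It encodes p57, is imprinted and is expressed from the maternal copy, and lies on chromosome 7 (143458339 to 143461050). An antisense gene overlaps it, from which the unstranded reads cannot be told apart. Its values were 7.66, 9.80, 6.84, 9.14, 3.99 and 6.64 in tumors 1 to 6, 9.04, 9.68 and 10.21 in KO_MSC 1, 2 and 3, and 10.44, 9.79 and 9.81 in WT_MSC 1, 2 and 3. All tumors but tumor 2 were below every WT MSC library, and all but tumors 2 and 4 below every KO MSC library. Tumors averaged 7.35 ± 2.07 (SD, n = 6), KO MSC 9.64 ± 0.59 and WT MSC 10.01 ± 0.37 (SD, n = 3 each). The differences were -2.29 ± 1.02 (SE) from KO MSC (adjusted p = 0.182, limma) and -2.67 ± 1.03 from WT MSC (adjusted p = 0.0907, limma). Within batch 1 they were -0.93 and -2.34, and within batch 2 -3.35 and -3.21. Without tumor 2 the difference from WT MSC was -3.16 and passed (adjusted p = 0.0392, limma), and over 19 alternatives its adjusted p ranged from 0.0102 to 0.378.

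Tumor 5 had the lowest Cdkn1c value, 0.77 below the common floor, so the authors' batch adjustment had moved it by at least that much. Kcnq1ot1 is the antisense RNA that silences the paternal copies of this imprinted cluster. In tumor 5 it was at 10.68, against 7.46 to 8.92 in the other tumors. Igf2, a growth factor gene of the neighbouring imprinted cluster, was at 10.68 there, against 5.62 to 8.44. Slc22a18 and Phlda2, which lie beside Cdkn1c, had 6.09 and 6.03 in tumor 5. These were within the ranges of the other tumors, 4.96 to 6.37 and 4.75 to 7.06. Whether Kcnq1ot1 had a part in the Cdkn1c value of tumor 5 was not tested. Of 12 imprinted genes near Cdkn1c limma passed none in tumors against KO MSC (3 at an unadjusted p under 0.05) or WT MSC (4), with medians of 0.25 and 0.08. Markers of stromal cells were lower in tumors as a group. Of 8 markers of LepR+ stromal cells, 5 fell against KO MSC and 8 against WT MSC, with medians of -2.76 and -4.35, and their mean level was 7.28 to 9.49 in tumors, 11.21 to 12.16 in KO MSC and 12.70 to 13.67 in WT MSC. Among the tumors the stromal level was 9.49, 8.43, 9.16, 7.78, 7.44 and 7.28 in tumors 1 to 6. It was highest in tumors 1 and 3, whereas Cdkn1c was highest in tumors 2 and 4. Both were lowest in tumors 5 and 6. The part of stromal cell content in the Cdkn1c values was not tested. Closest to Cdkn1c in pattern were Pros1 (0.80), Oplah (0.82) and Emp2 (0.89), against 0.20 to 0.58 for the closest genes of the other members. This measure is not scaled by spread, so it is hard to compare between members. The SD over the 12 libraries was 1.93 for Cdkn1c and 0.77 to 1.05 for Cdkn2c, Cdkn2d and Cdkn1b. For Cdkn2a and Cdkn2b it was 2.24 and 2.34.

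Cdkn1a, the KIP gene of p21 and a direct target of p53, was set beside the members. It had 11.82, 11.62, 12.58, 11.42, 11.15 and 11.34 in tumors 1 to 6, 7.39, 9.38 and 11.40 in KO_MSC 1, 2 and 3, and 8.15, 10.13 and 9.43 in WT_MSC 1, 2 and 3. All tumors were above WT MSC, and KO_MSC 3 lay within the tumor range. The difference was 2.42 ± 0.46 (SE) from WT MSC (adjusted p = 0.00509, limma) and 2.26 ± 0.71 from KO MSC (adjusted p = 0.0838, limma), and without KO_MSC 3 the second was 3.27 (adjusted p = 0.0123, limma). Within batch 1 the difference from WT MSC was 3.85, and in batch 2 alone it was 1.52 and did not pass (adjusted p = 0.0878, limma). Its adjusted p ranged from 0.000970 to 0.0878 over 19 alternatives.

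The cyclins that INK4 proteins act against changed in different directions in tumors. Of the 5 genes for INK4 targets, Ccnd1 and Ccnd2 rose, Ccnd3 fell, and Cdk4 and Cdk6 did not pass, in both tumor comparisons. Ccnd1, the cyclin D1 gene, had 10.59 to 13.50 in tumors (median 12.57), 5.55 to 7.74 in KO MSC and 5.33 to 7.54 in WT MSC. No tumor overlapped any MSC library, and Ccnd1 rose by 5.52 ± 0.71 (SE) against WT MSC (adjusted p = 0.00133, limma). Ccnd2 rose by 2.32 ± 0.57 against WT MSC (adjusted p = 0.0161, limma), though not without WT_MSC 1 (1.60, adjusted p = 0.0878, limma). Ccnd3 fell by 1.77 ± 0.40 against WT MSC (adjusted p = 0.0115, limma), though not without WT_MSC 1 (-1.35, adjusted p = 0.0654, limma). Against KO MSC the differences of Ccnd1, Ccnd2 and Ccnd3 were 5.87, 2.92 and -2.39. Without KO_MSC 1 those of Ccnd2 (2.56, adjusted p = 0.0751, limma) and Ccnd3 (-1.87, adjusted p = 0.126) did not pass, nor did Ccnd3 without KO_MSC 2 (adjusted p = 0.0769). Cdk4 had 11.63 to 13.47 in tumors, 12.40 to 13 in KO MSC and 10.97 to 11.98 in WT MSC, which overlap.

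Of the 7 KIP targets tested, Ccne1, the cyclin E1 gene, fell by 2.34 ± 0.48 (SE) in tumors against KO MSC (adjusted p = 0.0209, limma), and Cdk1 rose by 1.79 ± 0.49 against WT MSC (adjusted p = 0.0267, limma). The Ccne1 call was lost without KO_MSC 1 (adjusted p = 0.137, limma) or KO_MSC 2 (0.0845), and that of Cdk1 without WT_MSC 1 (0.0750), WT_MSC 2 (0.129) or tumor 3 (0.0509). Downstream, of 15 genes of the Rb and E2F families none passed against KO MSC, where limma gave 5 at an unadjusted p under 0.05, and against WT MSC 1 rose and 4 fell, led by Rbl2, the gene of the Rb relative p130, at -2.40 ± 0.33 (adjusted p = 0.00159, limma). Of 24 proliferation genes 3 fell against KO MSC, Mcm5, Rrm2 and Cdc6, and against WT MSC 2 rose and 11 fell, with medians of -1.39 and -1.45. Against KO MSC the Mcm5 call was lost without KO_MSC 1 or 2 (adjusted p = 0.130 and 0.0751, limma), and that of Rrm2 without KO_MSC 1 or 2 or tumors 3 or 5 (0.0514 to 0.160). The Cdc6 call was lost without any 1 library except KO_MSC 3 (0.0513 to 0.212). Their mean level was 8.43 to 9.64 in tumors, 8.44 to 11.28 in KO MSC and 8.78 to 10.28 in WT MSC, so the groups overlapped. Blood cell markers fell alongside. Of 8 neutrophil markers 5 fell against KO MSC and 2 against WT MSC, with medians of -3.84 and -2.11, and of 8 erythroid markers 2 fell in each comparison, with medians of -1.75 and -2.22. Mean neutrophil marker levels were 5.29 to 7.64 in tumors, 8.28 to 12.44 in KO MSC and 7.11 to 10.74 in WT MSC, and mean erythroid marker levels were 6.82 to 10.53 in tumors, 9.59 to 11.52 in KO MSC and 9.19 to 12.13 in WT MSC. In KO_MSC 1, 2 and 3 the proliferation level was 11.28, 10.62 and 8.44. Neutrophil marker levels there were 12.44, 9.65 and 8.28, and erythroid marker levels 11.52, 11.28 and 9.59. In WT_MSC 1, 2 and 3 the proliferation level was 10.17, 8.78 and 10.28. Neutrophil marker levels there were 10.74, 9.18 and 7.11, and erythroid marker levels 12.13, 9.19 and 9.97. In KO MSC the proliferation, neutrophil and erythroid levels were all highest in KO_MSC 1 and lowest in KO_MSC 3. In WT MSC the proliferation and erythroid levels were lowest in WT_MSC 2. The neutrophil level was lowest in WT_MSC 3, where the proliferation level was the highest of that group. The part of blood cells in the proliferation values was not tested.

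Among 11 genes of the ubiquitin ligases that degrade p27, against WT MSC 4 rose and 4 fell, and against KO MSC 1 fell, Ubac1. The Ubac1 call was lost on leaving out any 1 library except KO_MSC 3 (adjusted p 0.0576 to 0.225, limma). Those that rose were Rbx1 (3.40 ± 0.61), Cks1b (3.55 ± 0.68), Cks2 (2.31 ± 0.49) and Skp1a (2.2 ± 0.48), with adjusted p between 0.00374 and 0.00968 (limma). The Skp1a call was lost without WT_MSC 1 (adjusted p = 0.0532, limma). Cks1b, the cofactor through which the ligase recognises p27, had 11.57 to 15.00 in tumors, 10.19 to 12.06 in KO MSC and 9.09 to 10.25 in WT MSC. Skp2, which binds p27 directly, differed by 1.42 ± 0.63 from WT MSC and did not pass (adjusted p = 0.131, limma).

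Of 36 regulators of INK4 and KIP genes in 3 lists, 2 passed against KO MSC (5.56%) and 7 against WT MSC (19.4%), close to the 4.98% and 21.3% of all genes. Of 15 Polycomb genes known to repress Cdkn2a none passed against KO MSC, where limma gave 1, Cbx7, at an unadjusted p under 0.05, and 3 fell against WT MSC. Among them were Ezh1 (-2.54 ± 0.41, adjusted p = 0.00253, limma) and Cbx7 (-2.2 ± 0.51). Cbx7 did not pass without WT_MSC 1 (adjusted p = 0.0607, limma) or WT_MSC 2 (0.0539). Bmi1, the Polycomb gene best known for repressing this locus, differed by 0.11 ± 0.48 from KO MSC and 0.55 ± 0.45 from WT MSC, and Ezh2 by 0.72 ± 0.56 and 0.20 ± 0.36, none of which passed. Of 15 activators of INK4 and KIP genes 1 fell against KO MSC, Mapk14, and 2 fell against WT MSC, Mapk14 and Ets1. Against KO MSC the Mapk14 call was lost without any 1 library except tumor 1 and KO_MSC 3 (adjusted p 0.0634 to 0.226, limma), and against WT MSC that of Ets1 without WT_MSC 1 or 2 (0.0947 and 0.0807). Tgfb1, the inducer of Cdkn2b, differed by 1.76 ± 0.54 from KO MSC (adjusted p = 0.0825, limma) and by 1.59 ± 0.53 from WT MSC (adjusted p = 0.0557, limma). Of 6 repressors 1 rose against KO MSC, Twist1, and 2 against WT MSC, Twist1 (1.18 ± 0.31) and Id1 (2.72 ± 0.47, adjusted p = 0.00338, limma). Against KO MSC the Twist1 call (1.85 ± 0.41) was lost without KO_MSC 1 (adjusted p = 0.153, limma) or tumors 2, 5 or 6 (0.0539, 0.0542 and 0.0575). Against WT MSC it was lost without WT_MSC 1, 2 or 3 (adjusted p 0.0959, 0.0847 and 0.0601, limma).

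None of 6 ARF partners passed in tumors, where limma gave 1 against KO MSC and 2 against WT MSC at an unadjusted p under 0.05. Mdm2, the ligase that ARF holds back, differed by -0.33 ± 0.35 from KO MSC and by -0.12 ± 0.30 from WT MSC. Of 12 senescence genes 1 passed in each tumor comparison, Igfbp5, which fell by 5.39 ± 0.91 against WT MSC (adjusted p = 0.00289, limma). Its values lay between 6.78 and 11.43 in tumors and between 13.32 and 13.78 in WT MSC. Against KO MSC it fell by 3.61 ± 0.91 (adjusted p = 0.0443, limma), and that call was lost without any 1 library except tumor 3 (adjusted p 0.0527 to 0.208). It encodes a binding protein for insulin-like growth factors. Medians of the 12 were 0.06 against KO MSC and 0.11 against WT MSC. Between KO MSC and WT MSC limma passed no gene of these regulator and partner lists, and at an unadjusted p under 0.05 it gave, among others, Cdk4, Ezh1 and Tgfbr2.

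**Figure D4:**
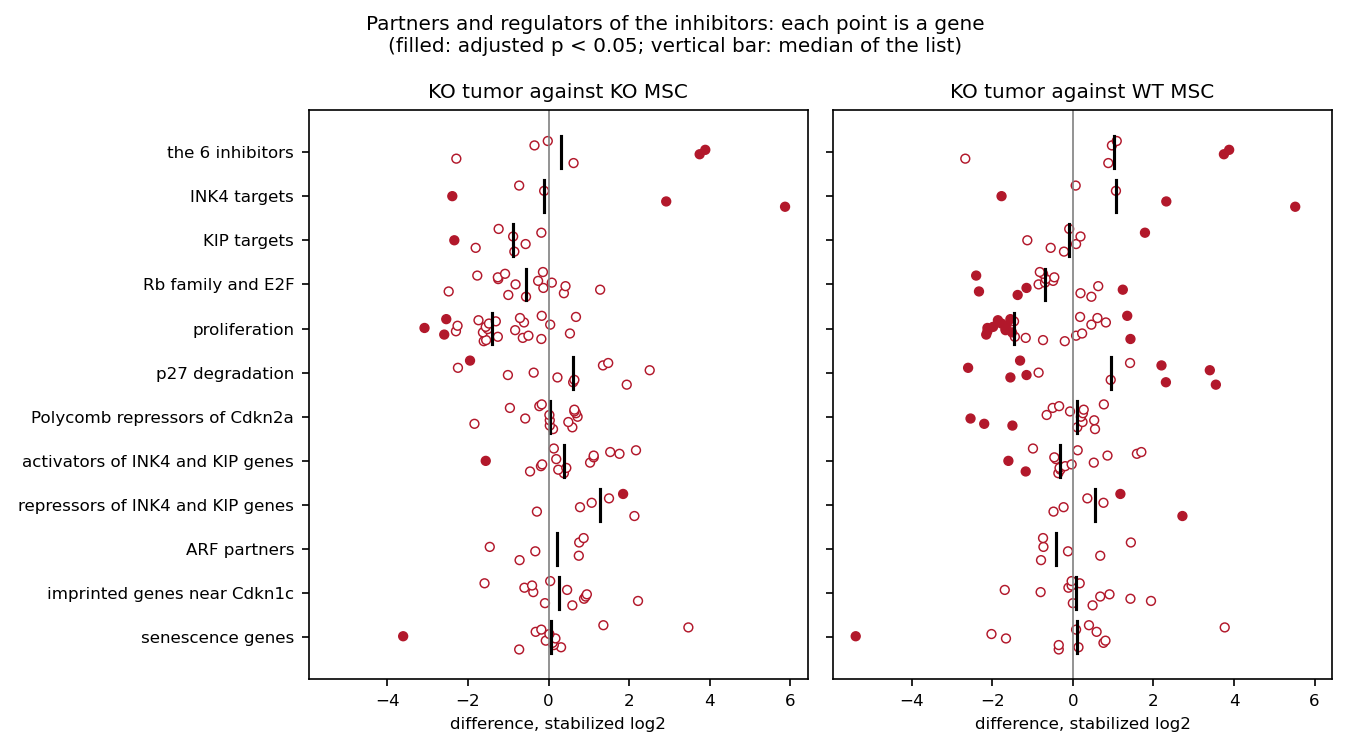
Difference of each gene (horizontal axis, stabilized log2) by list, for tumor against KO MSC (left) and tumor against WT MSC (right). Filled points have an adjusted p under 0.05 and black bars are list medians. Cdkn2a and Cdkn2b are the filled points of the top row, the INK4 target cyclins lie on both sides of 0, and most proliferation genes lie below 0.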

How the data were processed

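The tools named in the submitters' processing notes are Cuffdiff, Cufflinks 2.2.1 and TopHat2 2.0.13, with the build mm10. The sources used here do not say how stabilization and batch adjustment were done. The log2 values, variance-stabilized and batch-adjusted by the authors per the name of the deposited table, were used as they stand. The authors' other deposited table holds a score, which is a multiple of the stabilized value with 1 factor per library, and served as an alternative and as the gene filter. Neither table gives reads, so the depth per library is unknown and no counting interval is given.

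Libraries were grouped by the labels. Batches were read from floor values shared by at least 100 genes, and in 100% of 8352 genes both floors were equally far from the common floor (tolerance 1e-05). Such a shift cancels within a batch and with batch as a term. For a comparison, the libraries of the groups compared entered a limma fit (version 3.58.1, R 4.3.3, two-sided, trended eBayes, without covariates) of 18948 genes that varied. The fit was tested on simulated data. Because batch effects were removed before deposit, p-values of a fit that omits batch can be too small.

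The members, lists and tests were chosen with earlier results of these data known. Named genes were the members, Cdkn1a, Trp53 and the 2 nearest tested genes on each side. Of these neighbours, the nearest to the Cdkn2a and Cdkn2b pair are given, and Slc22a18 and Phlda2 beside Cdkn1c. Also named were up to 4 passing genes per list with the smallest adjusted p, and the leading 2 by unadjusted p where none passed. The 3 closest in pattern came from genes whose mean in a group reached 6.64 (log2 of 100). Cdk4, Bmi1, Ezh2, Skp2, Tgfb1, Mdm2, Igf2, Kcnq1ot1 and Lepr were added for their roles after values were seen. Alternatives were 2 other filters, the score table, 2 scalings, library weights, batch as a term, batch 2 alone, a replicate block, a joint fit, each library left out, and aligned floors. The values of 1 listed gene that passed are not reported here.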

Additional observations from a re-analysis of the deposited data

Results flagged for a closer look

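Cdkn2c in tumor 5 stood apart from the other tumors. Its value was 12.01, and the nearest of the other tumors was at 9.63, a gap of 0.671 of the range of the 6 tumors, beyond the limit of 0.625 that Dixon's criterion sets for 6 values. Among the 8 genes examined in this way 1 was so marked, and chance marks about 1 in 20 groups. Without tumor 5 the difference of Cdkn2c was -0.85 against KO MSC and 0.47 against WT MSC, and neither passed. No explanation was tested.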

How the results depend on the processing

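In batch 2 alone, with 3 tumors against 2 libraries, 27, 540 and 43 genes passed for tumor against KO MSC, tumor against WT MSC and KO MSC against WT MSC, and 0 members in both tumor comparisons. Cdkn2a then differed by 4.00 in both tumor comparisons and Cdkn2b by 4.37 and 4.52, and fewer libraries entered each fit. Library weights gave 4821, 6821 and 2447 genes and, for tumor against WT MSC and KO MSC against WT MSC, 4 and 1 members. Their estimation converged only for tumor against WT MSC. Under them Cdkn1c (-2.34 and -2.55 in the tumor comparisons), Cdkn2d (1.29 against WT MSC) and Cdkn2c (1.12, KO MSC against WT MSC) passed. For tumor against KO MSC, quantile normalization gave 1545 genes and the joint fit of 3 groups 1923. The exact permutation test gave p = 0.0476 for Cdkn2d, at 1.09 against WT MSC, which is counted below as a gained call. This p is not adjusted over genes, unlike those of the limma calls. The unadjusted limma p of the same difference was 0.0216.

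Libraries of different groups share a replicate number, but the deviations of same-numbered libraries correlated at -0.319 to 0.238, so the numbers were not taken to pair them. With the replicate number as a block, 34 genes and 0 members passed against KO MSC, and 1445 genes and 0 members against WT MSC. The blocked differences were 3.19 for Cdkn2a in both comparisons and 3.08 and 3.07 for Cdkn2b.

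Leaving out each library in turn gave 113 to 1627 genes and 0 to 2 members for tumor against KO MSC, the lowest without KO_MSC 1 and the highest without KO_MSC 3. Without KO_MSC 2, tumor 5 or tumor 6 it gave 396, 597 and 621 genes. For tumor against WT MSC it gave 1856 to 4737 genes and 1 to 3 members, with 1856, 2339 and 2268 genes without WT_MSC 1, 2 and 3. Against KO MSC, Cdkn2a ranged over 3.40 to 4.10, Cdkn2b over 3.51 to 4.37 and Cdkn2d over -0.354 to 0.445. Against WT MSC, Cdkn2a ranged over 3.40 to 4.10, Cdkn2d over 0.939 to 1.26 and Cdkn1c over -3.16 to -2.0. For KO MSC against WT MSC, Cdkn2b ranged over -0.493 to 0.318, Cdkn1b over -0.0564 to 0.725 and Cdkn1a over -0.853 to 1.16.

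Directions turned for differences near 0. For tumor against KO MSC, Cdkn2d was 0.0289 in the score table, 0.598 with library weights, 0.0448 with batch as a term and 0.0427 in batch 2, and Cdkn1b was -0.0463 in batch 2 and 1.75 in batch 1. For KO MSC against WT MSC, Cdkn2b was 0.0291 in the score table, 0.0929 with upper-quartile centring, 0.309 with quantile normalization, 0.591 with library weights and 0.154 in batch 2. Cdkn1c was 0.140 in batch 2 and -1.40 in batch 1, Cdkn1b -0.397 and Cdkn2c 0.780 in batch 1, and Cdkn1a -0.0802 with quantile normalization and -0.219 with library weights. The cause was not tested for these. Of 283 values of the 6 members and of the counts under these settings, leave-outs aside, 239 kept direction and call (counts within 1.5 times), 20 moved, 11 turned direction, 8 lost a call and 5 gained one. Without read counts, depth and its limits are unknown.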
